A study of Mus musculus with 21 samples.

Results

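Expression of 10 circadian clock genes was followed in the cortex of mice 24 h after the last of a series of mild head impacts. The genes were Bhlhe40, Per1, Per3, Nr1d1, Nr1d2, Dbp, Tef, Hlf, Clock and Rorb, found by their symbols among the 5544 Ensembl genes of the expression table, and all 10 were present. The animals were male wild-type C57BL/6 mice aged 12 weeks. Mice of the high-frequency head impact group (HF-HI, n = 11) received closed-head impacts under isoflurane, 5 a day on 6 consecutive days and 30 in all. Sham mice (n = 10) were handled and given isoflurane without impacts. Each library came from the cortex of 1 mouse. The mice were kept in a 12 h light and dark cycle, but the clock time at which either group was killed is not given in the sources used here, and a shift of collection time between the groups therefore cannot be told apart from the impacts by the labels alone.

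The mammalian clock is a transcriptional loop. CLOCK and BMAL1 (the product of Arntl) bind E-boxes and activate the Per and Cry genes, whose products return to the nucleus and repress them. A second arm runs through the nuclear receptors: REV-ERBα and REV-ERBβ (Nr1d1 and Nr1d2) repress Arntl, and the ROR receptors (Rora, Rorb) activate it through the same element. The PAR bZIP factors DBP, TEF and HLF carry the rhythm to output genes through D-boxes, and DEC1 and DEC2 (Bhlhe40 and Bhlhe41) compete for E-boxes. In peripheral and brain tissues of the mouse most E-box targets peak together in the light or early dark phase, roughly opposite to Arntl. Several members also answer other signals: Per1 and Bhlhe40 are induced by cAMP, neuronal activity and glucocorticoids, and Rorb marks the granular layer of the neocortex.

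Values were variance-stabilized counts on a log2 scale, so a difference of 1 is close to a doubling for well-expressed genes and understates the change of weakly expressed ones. Groups were compared with limma across the whole table, with Benjamini-Hochberg adjusted p-values over 5544 genes. The comparison was broad: 3674 genes, or 66.3% of those tested, passed an adjusted p of 0.05, with 32.6% higher and 33.6% lower in HF-HI. Depth relative to the median library ran from 0.580 to 1.26 in sham and from 0.548 to 1.64 in HF-HI. The libraries also differed in how the values followed the GC content of the exons, with a slope per 10% GC of -0.106 ± 0.0775 in sham and 0.0960 ± 0.0601 in HF-HI (SD, n = 10 and 11). Differences are therefore also given with each library's GC trend removed, where 60.2% of genes still passed. HF-HI replicates 9 and 11 had both the lowest depth and the lowest GC slopes of their group, and the 6 calls among the clock genes held with any 1 library left out. Neuronal markers were abundant, with 15 of 15 in the table, as were those of astrocytes (13 of 15) and oligodendrocytes (10 of 12). In bulk cortex, fewer cells of a type and less RNA per cell cannot be told apart.

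Promoter sequences of 9 of the 10 genes, from RefSeq on GRCm38.p6, were searched on both strands over the 250 bases before each start site. The motifs were the E-box CACGTG, the D-box TTATGTAA or TTACGTAA, the core of the element shared by REV-ERB and ROR receptors (RORE core) AGGTCA, and the cAMP response element (CRE) TGACGTCA. The E-box lay in 6.02% of all 32851 promoters, a D-box in 0.931%, the RORE core in 14.0% and the CRE in 1.55%. No matches overlapped. The 4 sequences shown here belong to 2 genes whose values rose in HF-HI (Per1 and Hlf) and to 2 of their paralogs whose values did not pass the test (Per3 and Tef). Capitals mark the motifs and the rest of each sequence is in lower case, read 5′ to 3′ on the strand of the gene. The Per1 sequence lies before the upstream of 2 start sites, at chr11:69098699-69098947 on the plus strand, and holds an E-box 166 bases and a RORE core (on the opposite strand) 137 bases before the start. The Per3 sequence, at chr4:151044666-151044915 on the minus strand, holds D-boxes 205 and 158 bases before the start. The Tef sequence, at chr15:81811164-81811413 on the plus strand, lies before the downstream of 2 start sites and holds an E-box at 138 bases. The Hlf sequence, at chr11:90390918-90391167 on the minus strand, holds a CRE 9 bases before the start.
Per1: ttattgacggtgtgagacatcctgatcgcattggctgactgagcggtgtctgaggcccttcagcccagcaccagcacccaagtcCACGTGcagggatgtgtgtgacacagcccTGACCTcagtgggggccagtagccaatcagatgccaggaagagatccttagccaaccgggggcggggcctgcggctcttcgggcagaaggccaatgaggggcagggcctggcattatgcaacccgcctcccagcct
Per3: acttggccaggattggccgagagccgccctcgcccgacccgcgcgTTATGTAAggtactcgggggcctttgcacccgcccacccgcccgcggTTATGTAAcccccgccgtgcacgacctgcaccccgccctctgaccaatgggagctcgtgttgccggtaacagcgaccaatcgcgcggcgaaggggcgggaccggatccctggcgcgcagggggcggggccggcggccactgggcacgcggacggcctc
Tef: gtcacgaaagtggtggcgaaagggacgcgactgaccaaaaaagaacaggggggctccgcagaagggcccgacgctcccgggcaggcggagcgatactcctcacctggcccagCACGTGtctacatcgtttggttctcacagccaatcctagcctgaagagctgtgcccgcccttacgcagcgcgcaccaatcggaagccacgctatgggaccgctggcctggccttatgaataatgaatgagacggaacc
Hlf: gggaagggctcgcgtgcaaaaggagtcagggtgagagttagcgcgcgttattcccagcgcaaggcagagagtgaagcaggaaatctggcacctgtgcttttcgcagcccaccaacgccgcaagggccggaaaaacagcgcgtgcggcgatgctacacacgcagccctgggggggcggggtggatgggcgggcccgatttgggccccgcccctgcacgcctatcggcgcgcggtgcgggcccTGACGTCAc

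Among the other promoters, an RORE core lay 77 bases before the Nr1d2 start and 119 bases before the furthest downstream of 3 Clock starts, and an E-box lay in an exon 127 bases before the upstream Tef start. The windows of Nr1d1, Dbp, Rorb and the downstream Per1 start held none of these letters. A match is a description of the letters in this window.

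Of the 10 clock genes, 5 rose in HF-HI (Bhlhe40, Per1, Nr1d1, Dbp and Hlf), 1 fell (Clock), and 4 did not pass the test (Per3, Nr1d2, Tef and Rorb). The share that passed, 60.0%, was near the 66.3% of all genes, and their median difference was 0.27 against -0.0086 over all genes tested. The sizes were uneven: 4 of the 10 rose by more than 0.5 on the log2 scale, which 5.74% of all genes did. Dbp, among these, had a mean above that of only 0.523% of the genes in the table, which was filtered by mean count. It may have passed that filter only through its higher HF-HI values, so its place in this count is not independent of its rise. The 10 were chosen with earlier results of these data known, and the 5 other clock transcription factors measured differed by -0.15 to 0.44. The groups did not overlap for 4 of the 10, all higher in HF-HI, as for 8.71% of all genes, while 0 of the 10 were lower without overlap, as 4.76% of all genes were. With the GC trend removed the same 6 genes passed. A plot of every library shows the members side by side on axes of equal span.

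**Figure D1:**
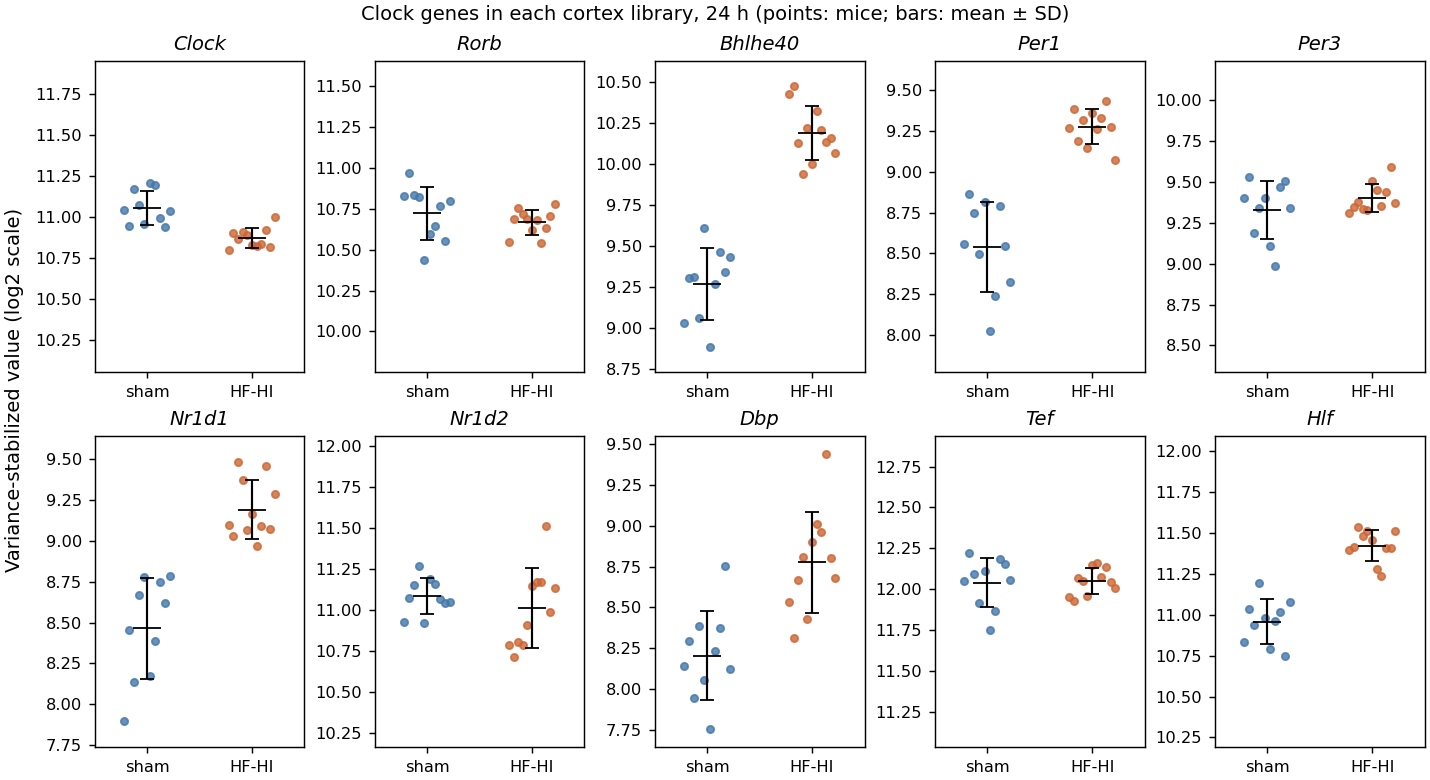
Variance-stabilized value (log2 scale) of each clock gene in each sham (n = 10) and HF-HI (n = 11) cortex library, with all axes spanning the same range. Points are mice and bars are the mean ± SD. The groups do not overlap for Bhlhe40, Per1, Nr1d1 and Hlf, overlap in part for Dbp and Clock, and lie on each other for Per3, Tef and Rorb, while Nr1d2 is more spread in HF-HI.

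The positive arm of the loop was slightly lower in HF-HI. Clock, the histone-acetylating partner of BMAL1, read 10.94 in the lowest, 11.04 in the median and 11.21 in the highest sham mouse. In HF-HI it read 10.80 in the lowest and 10.87 in the median mouse, and the highest lay within the sham range. Of the 11 HF-HI mice, 10 lay below every sham mouse. Clock fell by 0.18 on the log2 scale (SE 0.0374, limma adjusted p = 1.65e-04), and this shrank to -0.069 with the GC trend removed (adjusted p = 0.0337). Clock was the member most strongly tied to the GC slope of the library within groups (r = -0.77 over 21 libraries), and the part of that slope in its difference was not tested beyond this. Arntl, which encodes its partner BMAL1, was lower as well, from 8.62 ± 0.0957 in sham to 8.47 ± 0.101 in HF-HI (SD; difference -0.15, adjusted p = 0.00358), and stood at -0.18 with the GC trend removed.

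The E-box repressors showed the steepest increase and also a member that did not pass. Bhlhe40, the repressor DEC1, gave the largest difference of the 10. Its values were 8.89, 9.31 and 9.61 in the lowest, median and highest sham mouse and 9.94, 10.16 and 10.48 in HF-HI. All 11 HF-HI mice lay above all 10 sham mice. It rose by 0.92 (SE 0.0785, adjusted p = 2.24e-09), and by 0.93 with the GC trend removed. Its exons have 47.1% GC, against 58.7% for Per1, 56.3% for Nr1d1 and 58.0% for Dbp. Bhlhe41, its paralog DEC2, rose by 0.26 (adjusted p = 0.00214).

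Per1, a core repressor and an immediate-early gene of the clock, read 8.02, 8.55 and 8.86 in the lowest, median and highest sham mouse. The HF-HI values were 9.07, 9.27 and 9.43, without overlap. The HF-HI mice were also closer to each other, with an SD of 0.108 against 0.276 in sham. Per1 rose by 0.73 (SE 0.0832, adjusted p = 1.17e-07), and by 0.48 with the GC trend removed. Per3, which is less needed for the core loop, ran from 8.99 to 9.53 in sham and from 9.31 to 9.59 in HF-HI. Its difference of 0.073 did not pass (95% interval -0.046 to 0.19, adjusted p = 0.267). Cry2, a partner of the PER proteins, rose by 0.44 (adjusted p = 9.61e-07). Cipc, another inhibitor of CLOCK, rose by 0.14 (adjusted p = 0.00442), but did not pass with library medians centred or after quantile normalization (both 0.093, adjusted p = 0.0526 and 0.0508).

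Of the REV-ERB receptors, Nr1d1 rose and Nr1d2 did not pass. Nr1d1 read 7.90, 8.54 and 8.78 in the lowest, median and highest sham mouse and 8.97, 9.10 and 9.48 in HF-HI. Every HF-HI mouse lay above every sham mouse. The difference was 0.73 (SE 0.10, adjusted p = 1.73e-06), and 0.53 with the GC trend removed. Within groups Nr1d1 was lower in deeper libraries (r = -0.56 with log2 depth over 21 libraries), while the HF-HI libraries were the deeper ones by median. Nr1d1 overlaps the oppositely transcribed gene Thra at their ends, Dbp overlaps Sphk2 in the same way, and Bhlhe40 and Tef each overlap an annotated antisense RNA near their starts. Per3 lies within the annotated span of Camta1 on the same strand. The counting is not stated to use strand, so reads of the overlaps cannot be told apart.

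Nr1d2 read 10.92, 11.07 and 11.27 in the lowest, median and highest sham mouse and 10.71, 10.99 and 11.52 in HF-HI. Its difference was -0.075 (95% interval -0.24 to 0.085, adjusted p = 0.400). The HF-HI mice ran both below and above the sham mice: 5 of 11 lay below every sham mouse and 1, replicate 9, lay above. The SD in HF-HI was 2.18 times that in sham, whereas for 8 of the other 9 genes it ranged from 0.389 to 0.760 times, and for Dbp it was 1.14 times. These SD ratios were not tested.

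The ROR receptors differed by less than the spread between mice. Rorb ran from 10.44 to 10.97 in sham and from 10.54 to 10.78 in HF-HI, a difference of -0.055 (95% interval -0.16 to 0.053, adjusted p = 0.361). All 11 HF-HI mice lay below the sham median of 10.78, within the sham range. Rora differed by -0.039 (adjusted p = 0.756). Since Rorb marks a cortical layer, the list of layer markers that holds it is given here. Of 11 measured among 15, 6 (54.5%) were higher in HF-HI and none lower (median 0.15). Of all genes, 32.6% were higher and 66.3% passed in either direction. Tbr1, a transcription factor of deep-layer neurons, rose by 1.02 (adjusted p = 8.76e-09), Cux2, of upper layers, by 0.57, Kcnh5 by 0.39 and Parm1 by 0.24. The markers that did not pass besides Rorb, named after their values were seen, were Etv1, Foxp2, Tle4 and Syt6. They stood at 0.018, -0.14, 0.063 and 0.12 (adjusted p = 0.786, 0.0718, 0.153 and 0.0693), so the rise of Tbr1 and Cux2 does not stand for every marker of their layers.

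The PAR bZIP output factors split. Dbp, the most strongly rhythmic of them in most tissues, read 7.76, 8.19 and 8.75 in the lowest, median and highest sham mouse. In HF-HI it read 8.31, 8.80 and 9.44. The groups overlapped, with 6 of 11 HF-HI mice above every sham mouse and 11 of 11 above the sham median. Dbp rose by 0.57 (SE 0.117, adjusted p = 1.91e-04), and by 0.34 with the GC trend removed (adjusted p = 0.0182). Its mean was below that of all but 0.523% of the genes in the table, where the stabilized scale compresses differences most. A gene this near the low end of the filtered table may be in it only through its HF-HI values.

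Hlf read 10.75, 10.97 and 11.19 in the lowest, median and highest sham mouse and 11.24, 11.42 and 11.54 in HF-HI. The groups did not overlap. Hlf rose by 0.46 (SE 0.0492, adjusted p = 4.41e-08), and by 0.50 with the GC trend removed. Tef ran from 11.75 to 12.22 in sham and from 11.93 to 12.16 in HF-HI, and its difference of 0.0072 (95% interval -0.097 to 0.11, adjusted p = 0.907) was the smallest of the 10.

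Compared per kilobase of the longest transcript, on the same log2 scale, Tef had the highest mean level over all libraries (9.91), followed by Nr1d2 (8.83), Hlf (8.71) and Bhlhe40 (8.11). Clock (7.68), Dbp (7.63), Rorb (7.48) and Nr1d1 (7.40) came next, and Per3 (6.78) and Per1 (6.70) were lowest. In sham the levels fell from Tef (9.90 ± 0.152) over Nr1d2 (8.87 ± 0.111) and Hlf (8.46 ± 0.137) to Clock (7.77 ± 0.103, SD, n = 10), each apart by more than the SD of either neighbour. From Clock down through Bhlhe40 (7.63 ± 0.220), Rorb (7.51 ± 0.162), Dbp (7.33 ± 0.272), Nr1d1 (7.02 ± 0.311) and Per3 (6.74 ± 0.178), neighbours lay within the larger of their SDs, and Per1 stood lowest (6.32 ± 0.276). In HF-HI the same held for Hlf (8.93 ± 0.0942), Nr1d2 (8.79 ± 0.243) and Bhlhe40 (8.55 ± 0.167), and for Dbp (7.90 ± 0.310), Nr1d1 (7.75 ± 0.180) and Clock (7.59 ± 0.0601). There Per1 (7.05 ± 0.108) stood above Per3 (6.82 ± 0.0868, SD, n = 11), the reverse of their order in sham.

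**Figure D2:**
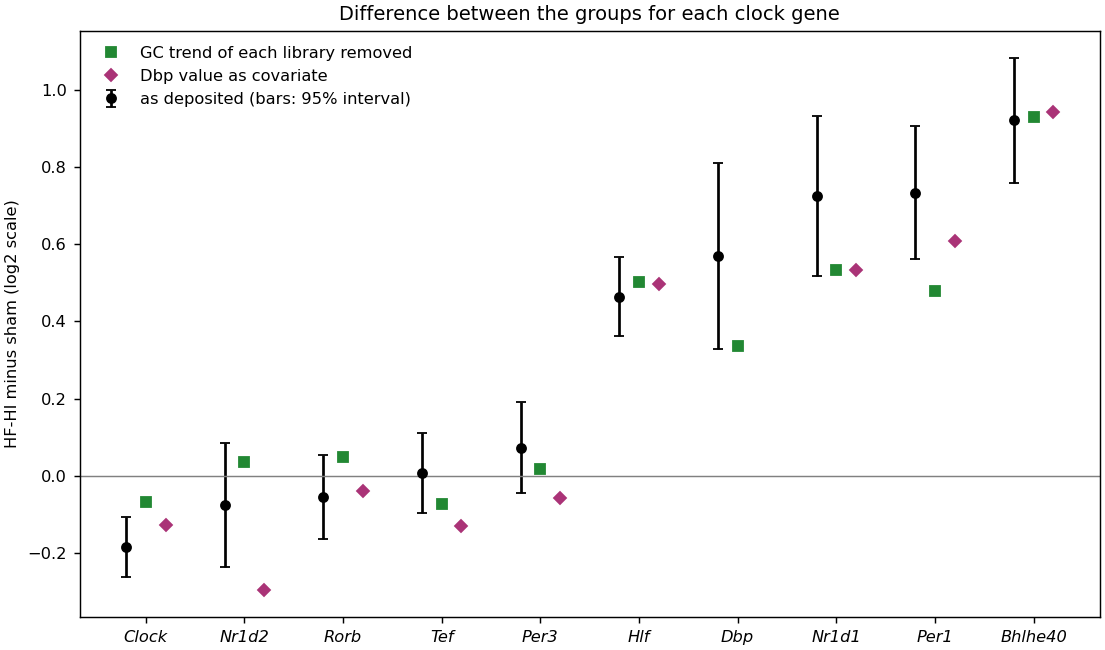
Difference between HF-HI and sham (log2 scale) for each clock gene, ordered by size. Circles are the deposited values with 95% intervals, squares the values after each library's GC trend was removed, and diamonds the difference with the Dbp value of each mouse as a covariate. Bhlhe40 and Hlf keep their size in all 3, while Per1, Nr1d1, Dbp and Clock shrink once the GC trend is removed and Nr1d2 lies at -0.30 with Dbp as covariate.

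Since paralogs encode proteins of like function, the difference between paralogs was formed within each mouse and compared between the groups (permutation test of the group labels, two-sided, p adjusted over 5 pairs). Per1 lay 0.79 ± 0.201 below Per3 in sham and 0.13 ± 0.121 below it in HF-HI (SD; adjusted permutation p = 5.00e-05). The shift of 0.66 put all 11 HF-HI mice above all 10 sham mice. Nr1d1 moved by 0.80 relative to Nr1d2, with 10 of 11 HF-HI mice above every sham mouse (adjusted permutation p = 5.00e-05). Dbp moved by 0.56 relative to Tef (adjusted permutation p = 8.75e-05, 8 of 11 above). Tef moved by -0.46 relative to Hlf (adjusted permutation p = 5.00e-05, 8 of 11 below). Dbp and Hlf were not distinguishable in their shift (0.11, adjusted permutation p = 0.477), and that value turned to -0.17 with the GC trend removed. The exons of Per1, Nr1d1 and Dbp are richer in GC than those of Per3, Nr1d2 and Tef. With the trend removed, Per1 stood at 0.48 and Per3 at 0.018, and Nr1d1 at 0.53 and Nr1d2 at 0.036. Dbp, Tef and Hlf then stood at 0.34, -0.073 and 0.50. In each of the 3 families, then, 1 gene that did not pass stood beside at least 1 that rose.

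**Figure D3:**
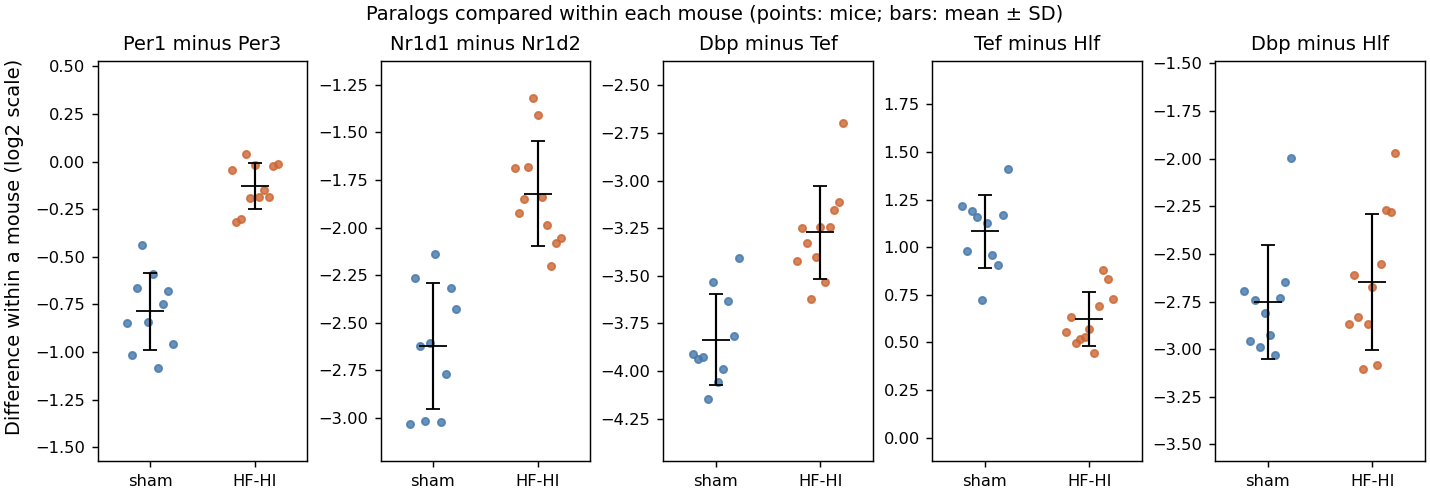
Difference between 2 paralogs within each mouse (log2 scale), for sham (n = 10) and HF-HI (n = 11), with axes of equal span. Points are mice and bars the mean ± SD. Of 11 HF-HI mice, 11, 10 and 8 lie above every sham mouse for Per1 minus Per3, Nr1d1 minus Nr1d2 and Dbp minus Tef, 8 lie below for Tef minus Hlf, and the groups overlap for Dbp minus Hlf.

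The members were next set against what a difference in collection time would move together. Of 12 genes that usually peak with the E-box targets, 9 were in the table, of which 6 rose, none fell and 3 did not pass (Nr1d2, Per3 and Tef). Both measured genes of the opposite phase, Arntl and Clock, fell. The share of the first list that passed was 66.7%, all of it higher. Of all genes, 66.3% passed in either direction and 32.6% passed as higher. Differences in the first list ran from -0.075 to 0.92. The second list is only these 2 genes, of which Clock stood at -0.069 with the GC trend removed. Most of these genes are also members here, so the lists are no separate sample of genes. The first list includes Dbp, which may be in the table only through its HF-HI values.

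Variation between mice of one group gave a scale for each gene against Dbp. Over the 21 libraries, with group means removed, Bhlhe41 changed by 0.41 per unit of Dbp, Nr1d2 by 0.39, Nr1d1 by 0.34, Tef by 0.24, Per3 by 0.23, Per1 by 0.22 and Arntl by -0.25. Multiplied by the Dbp difference of 0.57 between the groups, these slopes give 0.24 for Bhlhe41 and -0.14 for Arntl. The measured differences were 0.26 and -0.15. The same product was 0.13 for Per1, where 0.73 was measured, and 0.19 for Nr1d1, again against 0.73. For Tef it was 0.14 against 0.0072, and for Nr1d2 it was 0.22 against -0.075. Bhlhe40 and Hlf had slopes of -0.039 and -0.058 and products of -0.022 and -0.033, against measured differences of 0.92 and 0.46. Without HF-HI replicate 9, the mouse with the highest Dbp, the slope was 0.23 for Nr1d2, 0.34 for Bhlhe41 and -0.25 for Arntl. Within sham alone Nr1d2 and Dbp gave r = -0.070.

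With Dbp as a covariate in the limma fit, 52.1% of the other 5543 genes passed. For each gene the estimate is the measured difference less the product of slope and Dbp difference described above. It is therefore no second measurement, and the fit adds only the test. Bhlhe40 was then higher by 0.94 (adjusted p = 2.63e-06), Per1 by 0.61 (adjusted p = 2.44e-04), Nr1d1 by 0.53 (adjusted p = 0.00278) and Hlf by 0.50 (adjusted p = 1.46e-05). Cry2 was higher by 0.40 (adjusted p = 6.11e-04). Arntl and Bhlhe41 no longer passed, at -0.013 (adjusted p = 0.834) and 0.028 (adjusted p = 0.769). Nr1d2 passed in the negative direction, at -0.30 (adjusted p = 0.0109), and Tef stood at -0.13 (adjusted p = 0.0793). Clock was at -0.13 (adjusted p = 0.0445). HF-HI replicate 9 had the highest Dbp and Nr1d2 of all mice. Without it, Nr1d2 was at -0.24 (adjusted p = 0.0266) and Clock no longer passed (-0.10, adjusted p = 0.0969), while Bhlhe40, Per1, Nr1d1 and Hlf still did. Bhlhe41 was then at 0.054 and Arntl at -0.014 (adjusted p = 0.570 and 0.831). Dbp itself carries measurement error and differed between the groups, so these values describe the members at equal measured Dbp. Collection time itself was not tested.

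**Figure D4:**
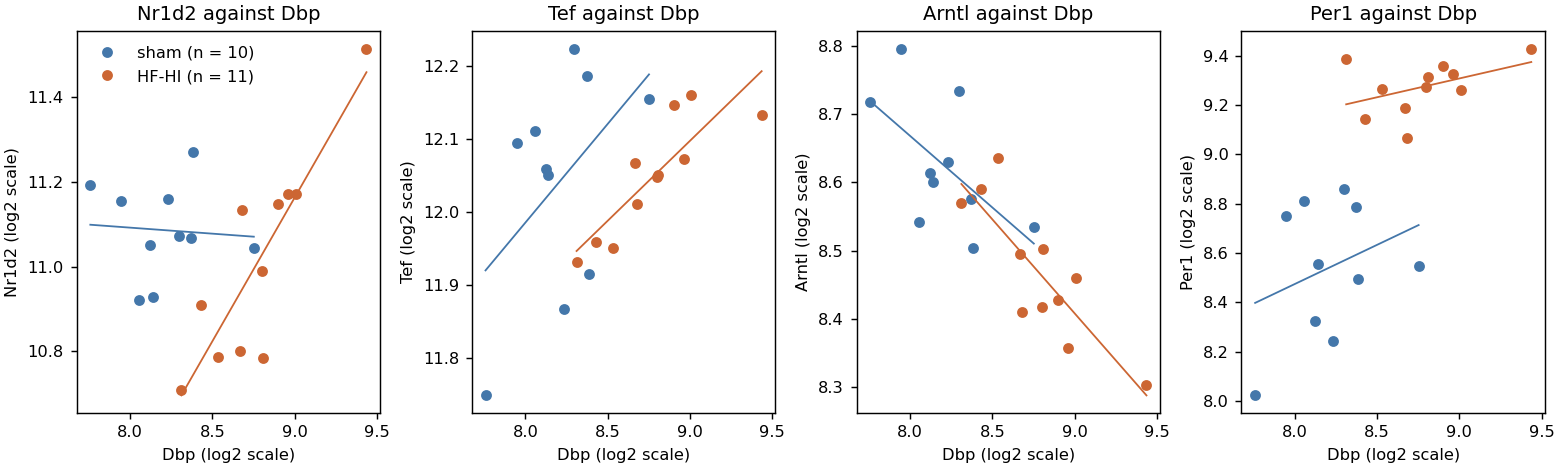
Value of Nr1d2, Tef, Arntl and Per1 against Dbp in each mouse (both axes log2 scale), sham in blue (n = 10) and HF-HI in orange (n = 11), with a least-squares line for each group. For Arntl the lines of the groups nearly meet, for Per1 all HF-HI mice lie above all sham mice, for Nr1d2 the slope is seen in HF-HI (r = 0.87) and not in sham (r = -0.070), and for Tef the HF-HI line lies below the sham line.

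Covariation of the members between mice of one group was measured next. For 45 pairs, Pearson's r and Spearman's rho of the deviations from the group means were tested over 21 libraries by permutation within groups, with p adjusted over the pairs. As a whole the members were about as correlated as genes of this table generally: the median absolute r was 0.252 against 0.253 over all pairs of genes, and 9 of 45 (20.0%) exceeded 0.5 against 15.7%. In all, 6 pairs passed by r, 4 positive and 2 negative, and 2 by rho. A further 6 had an unadjusted p under 0.05, for 12 in total.

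Per3 and Clock were the most tightly linked pair, in opposite directions (r = -0.79, adjusted permutation p = 0.00495, rho = -0.73, adjusted permutation p = 0.0234). Leaving out the 2 mice farthest from the median of Per3 gave r = -0.65, and removing the GC trend gave -0.78. The r was -0.94 within sham and -0.33 within HF-HI. Per3 varied with Tef (r = 0.76, adjusted permutation p = 0.00990, rho = 0.71, adjusted permutation p = 0.0272), with r = 0.58 without the 2 farthest mice. Per1 and Tef also passed by r (0.77, adjusted permutation p = 0.00990, rho = 0.66, adjusted permutation p = 0.0604). Their r was 0.88 within sham and 0.32 within HF-HI, and 0.57 without the 2 farthest mice. Tef and Clock ran in opposite directions (r = -0.65, adjusted permutation p = 0.0468, rho = -0.62, adjusted permutation p = 0.0640), with r = -0.38 without the 2 farthest mice, so that this relation rests on those samples, and it no longer passed in 14 of 21 fits with 1 library left out.

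The other 2 pairs that passed joined Dbp to Tef and to Nr1d2, while Tef and Nr1d2 themselves did not pass (r = 0.11, adjusted permutation p = 0.824, rho = 0.15, adjusted permutation p = 0.848). Dbp and Tef gave r = 0.59 (adjusted permutation p = 0.0394, rho = 0.56, adjusted permutation p = 0.0641), and 0.58 without the 2 farthest mice. The pair no longer passed in 10 of 21 fits with 1 library left out (r from 0.49 to 0.66), nor with the GC trend removed (0.55, and 0.19 within sham). Dbp and Nr1d2 gave r = 0.59 (adjusted permutation p = 0.0487, rho = 0.56, adjusted permutation p = 0.0684). The latter was carried by HF-HI, with r = 0.87 there and -0.070 in sham. It was 0.38 without HF-HI replicate 9 and 0.27 without the 2 farthest mice, and so rests on those samples, and it no longer passed in 16 of 21 fits with 1 library left out. Removing the GC trend gave 0.79 over all mice and 0.37 in sham. None of the differences in r between the groups was tested. Technical measures also moved with the members: within groups, the GC slope correlated with Clock at -0.77, Nr1d2 at -0.66, Per3 at 0.52, Tef at 0.48, Bhlhe40 at 0.47 and Per1 at 0.46, but with Dbp at 0.028. The part of the slope in the correlations between members was not tested beyond the removal of the trend.

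Each member was also paired with the 5 other clock factors in the table, a comparison added after the values were seen. Of 50 pairs, 14 passed by r and 6 by rho, all of the latter also by r. Dbp and Arntl were opposed (r = -0.74, adjusted permutation p = 0.00425, rho = -0.67, adjusted permutation p = 0.0272), at -0.60 within sham, -0.84 within HF-HI, -0.66 without the 2 farthest mice and -0.71 with the GC trend removed. Dbp and Bhlhe41 ran together (r = 0.71, adjusted permutation p = 0.00508, rho = 0.72, adjusted permutation p = 0.0167), at 0.39 within sham, 0.89 within HF-HI and 0.79 without the 2 farthest mice. Nr1d2 and Bhlhe41 gave r = 0.70 (adjusted permutation p = 0.00975, rho = 0.66, adjusted permutation p = 0.0408), and 0.47 without the 2 farthest mice. Clock was opposed to Cipc (r = -0.80, adjusted permutation p = 0.00350, rho = -0.76, adjusted permutation p = 0.0167) and to Cry2 (r = -0.76, adjusted permutation p = 0.00508, rho = -0.68, adjusted permutation p = 0.0365). Without the 2 farthest mice these were -0.67 and -0.61. Cipc and Cry2 followed the GC slope as closely as Clock did (r = 0.72 and 0.76), and with the GC trend removed the 2 pairs stood at -0.63 and -0.53. Tef and Cipc were the last pair to pass by both (r = 0.76, adjusted permutation p = 0.00450, rho = 0.63, adjusted permutation p = 0.0483), at 0.52 without the 2 farthest mice.

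**Figure D5:**
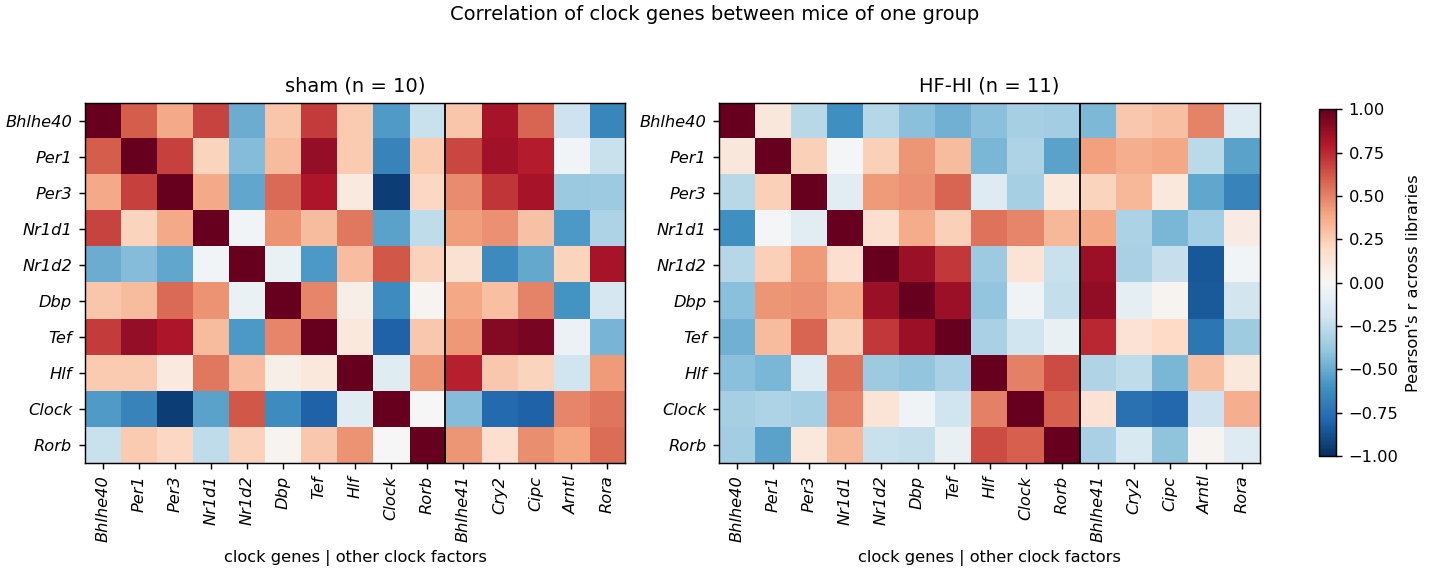
Pearson's r across the libraries of one group for the 10 clock genes (rows and left columns) and 5 other clock factors (right columns), sham (n = 10) on the left and HF-HI (n = 11) on the right, on a colour scale from -1 to 1. In sham, Per1, Per3 and Tef form a positive block opposed to Clock. In HF-HI, Nr1d2, Dbp, Tef and Bhlhe41 form a positive block opposed to Arntl.

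All genes of the table were ranked by how closely they followed 4 of the members within groups (Pearson's r of deviations over 21 libraries, given as a description). The nearest to Bhlhe40 were Ints7 (0.74), Supt5 (0.72), Smurf1 (0.71), Brd8 (0.71) and Cpeb1 (0.69). Per1 was followed by Ptov1 (0.81), Asxl2 (0.78), Cry2 (0.77), Kcnt1 (0.77) and Tef (0.77), so that 2 of its 5 nearest among all genes were clock genes. With the GC trend removed, r with Per1 was 0.63 for Cry2 and 0.65 for Tef, and 0.72, 0.60 and 0.66 for Ptov1, Asxl2 and Kcnt1. Per1 and Cry2 did not pass by rho (0.48, adjusted permutation p = 0.151). Dbp was followed by Tle1 (0.73), Bhlhe41 (0.71), Strip2 (0.68), Nfx1 (0.67) and Negr1 (0.67). Rorb was nearest to Slc23a2 (0.86), Frmpd4 (0.84) and Cux1 (0.80), the last a transcription factor of upper cortical layers, and then to Rcan2 (0.77) and Edem1 (0.77). Of these 20 neighbours, 9 rose in HF-HI, from Cux1 (0.15) to Cry2 (0.44), 3 fell (Asxl2, Strip2 and Frmpd4, by 0.12, 0.15 and 0.19), and 8 did not pass. Of all genes, 32.6% were higher, 33.6% were lower and the rest did not pass. Whether following a member within groups goes with its difference between groups was not tested.

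The rest of the clock machinery moved in both directions. Of 49 genes in 3 lists, 35 were in the table, of which 15 rose and 10 fell, 71.4% against 66.3% of all genes, with a median difference of 0.063. The split was 11 to 11 with library medians centred and 16 to 7 with the GC trend removed. Of the 5 other clock transcription factors, 3 rose (Cry2, Bhlhe41 and, not under every scaling, Cipc), 1 fell (Arntl) and Rora did not pass. Among 16 measured kinases and ubiquitin ligases, which set the stability of PER and CRY proteins, 7 rose and 8 fell, so that 93.8% passed. The risers were led by genes of kinases. Csnk2b, the regulatory subunit of casein kinase 2, rose by 0.77 (adjusted p = 1.89e-07). Csnk1e, which phosphorylates PER, rose by 0.48 and Gsk3b by 0.39 (adjusted p = 6.02e-08 and 2.32e-08). Csnk2a1, a catalytic subunit of casein kinase 2 named after its values were seen, stood at -0.14 (adjusted p = 0.00444). Gsk3a rose by 0.19 (adjusted p = 0.0441), but stood at -0.067 with the GC trend removed. The genes that fell included the scaffold of the ubiquitin ligases that act on CRY and PER: Skp1a fell by 0.40, Cul1 by 0.29 and Rbx1 by 0.17, beside the kinase Csnk1a1 by 0.19 (adjusted p = 3.00e-07, 1.81e-07, 8.97e-04 and 1.21e-04). With the GC trend removed, Csnk1a1 stood at -0.068 and Csnk1e at 0.31, and Rbx1 did not pass once the length trend was removed too (-0.086, adjusted p = 0.0918). Among 14 measured cofactors, 5 rose and 1 fell, so that 42.9% passed. Nono, which binds PER complexes, rose by 0.69, the methyltransferase Kmt2a by 0.51, the acetyltransferase Crebbp by 0.42 and the remodeller Chd4 by 0.20. Nampt, a clock-controlled enzyme of NAD+ synthesis, fell by 0.18 (adjusted p = 3.00e-04). Chd4 and Nampt shrank to 0.072 and -0.073 with the GC trend removed, and with the length trend removed as well neither passed (0.015 and -0.041, adjusted p = 0.682 and 0.190).

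Other programs that can act on Per1 and Bhlhe40 were read from marker lists. Of 18 activity-induced genes, 6 were in the table and 5 rose (83.3%), where 32.6% of all genes were higher. The table was filtered by mean count and holds none of the other 12. Nr4a1 and Junb averaged 7.92 and 7.93 in sham, below Dbp in sham (8.21), whose mean is among the lowest in the table. They may be in it only through their HF-HI values (9.28 and 8.89), so the share that rose may be partly set by the filter. Arc rose by 1.60, Nr4a1 by 1.35, Egr1 by 1.10 and Junb by 0.97 (adjusted p = 5.46e-08, 3.90e-07, 1.41e-08 and 1.00e-05), while Homer1 stood at -0.14 (adjusted p = 0.135). With the GC trend removed these 4 rose by 1.34, 1.18, 0.89 and 0.61, beside 0.93 for Bhlhe40. The summed level of all 6 measured genes, as the log2 of the sum, ran from 12.87 to 13.50 in sham and from 13.41 to 13.98 in HF-HI. Homer1 made up much of that sum, with a mean of 12.77 in sham and 12.64 in HF-HI. Of 13 glucocorticoid-induced genes, 5 were in the table and moved in both directions, with 60.0% passing against 66.3% of all genes. Zbtb16 rose by 0.55 and Mt1 by 0.37 (adjusted p = 1.64e-06 and 1.24e-04), the latter by 0.22 with the GC trend removed. Tsc22d3, the glucocorticoid-induced leucine zipper GILZ, fell by 0.26 (adjusted p = 3.69e-04), and Sgk1 and Klf9 did not pass. The summed level of all 5 ran from 12.17 to 12.35 in sham and from 12.29 to 12.66 in HF-HI. The part of either program in the clock genes was not tested.

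Neuronal and astrocyte markers passed the test about as often as other genes, at 66.7% and 69.2% against 66.3% of all genes. Oligodendrocyte markers passed less often, at 3 of 10. Of the 15 neuronal markers, 9 rose and 1 fell, and their summed level ran from 16.80 to 16.90 in sham and from 16.94 to 17.07 in HF-HI, without overlap. Slc17a7, the vesicular glutamate transporter of excitatory neurons, rose by 0.89 and Rbfox3 by 0.83 (adjusted p = 8.88e-11 and 1.26e-10), while Map2 fell by 0.097 (adjusted p = 0.00175). The markers that did not pass were named after their values were seen. Gad1 and Gad2 of inhibitory neurons stood at -0.097 and -0.010 (adjusted p = 0.149 and 0.906). Neurod6 stood at 0.13, Nefl at -0.0039 and Eno2 at -0.058 (adjusted p = 0.0999, 0.945 and 0.174). Of the 13 astrocyte markers, 6 rose and 3 fell (summed level 16.53 to 16.62 in sham, 16.61 to 16.71 in HF-HI). Of the 10 oligodendrocyte markers, 3 rose (15.38 to 16.10 against 15.42 to 16.08). Of microglia, the receptor gene Csf1r rose by 0.13 (adjusted p = 0.0184). Of 10 endothelial markers 2 were in the table, of which Flt1 rose by 0.28 (summed level 9.79 to 10.12 in sham, up to 10.27 in HF-HI). Of 6 choroid plexus markers 2 were in the table and neither passed (11.37 to 12.87 against 11.65 to 14.13). The part of cell composition in the differences of the clock genes was not tested.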

How the data were processed

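Cortical total RNA of each mouse gave a library of its own (10 sham, 11 HF-HI), so that replicates are separate animals. The authors removed ribosomal RNA, made stranded libraries, pooled 6 samples at a time for sequencing, used STAR for alignment to mm10, eXpress for counting and DESeq2 for normalization, whose versions are not given in the sources used here. The deposited table holds the authors' variance-stabilized counts on a log2 scale, from 4.59 to 17.7, for 5544 genes. The study states that genes were filtered by their mean normalized count, without the value. Read counts were not analysed here, total depth is unknown, and precision rests on the spread between mice. All columns matched a library (0 unmatched).

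Symbols (5541 genes) and exonic GC (5539 genes) came from GENCODE on GRCm38. HF-HI was tested against sham in R 4.3.3 with limma 3.58.1, using lmFit and then eBayes with trend set. Tests were two-sided, p-values were adjusted by Benjamini-Hochberg over all genes, and the threshold was 0.05. Paralog contrasts and correlations used 100000 permutations in Python 3.11.15 (numpy 2.4.6, scipy 1.17.1, pandas 2.3.3, statsmodels 0.14.6, matplotlib 3.10.9). GC trends were removed per library with a lowess of span 0.3, which would also remove biology that follows GC. Relative depth came from the spacing of the values between 500 and 600 on the linear scale. Lists were summed on the linear scale. The fit was tested on simulated data. Where libraries were left out of a correlation, these were the 2 farthest from the median of the first gene of the pair.

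The members and lists were chosen with earlier results of these data known. Named genes are the 10 clock genes, the other clock transcription factors, up to 4 genes per list and direction with the largest differences past the threshold, and the 5 nearest neighbours of Bhlhe40, Per1, Dbp and Rorb. The pairs with other clock factors, the slopes on Dbp, the Dbp covariate for those factors, and that fit without HF-HI replicate 9 were added after seeing the data. One marker gene of the microglial list, and that list's sums, are not reported here.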

Additional observations from a re-analysis of the deposited data

How the results depend on the processing

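The count of 6 clock genes past the threshold was 5 to 7 under the other settings tried, except that 3 remained (2 higher, 1 lower) when the lowest quartile of genes by mean was left out, because Dbp, Nr1d1 and Per1 are in that quartile and were then not tested. The 25 other clock pathway genes past the threshold became 10 (8 higher, 2 lower) with a minimum difference of 0.25, and ran from 24 to 26 with each library left out. The 6 correlations that passed became 2 by Spearman's rho, 2 within sham alone and 2 within HF-HI alone, and 3 to 8 with each library left out; the cause was not tested beyond the smaller number of libraries. Libraries whose omission left 3 were sham replicates 1, 6 and 8 and HF-HI replicates 2, 5, 6, 7 and 8.

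Replicate numbers did not pair the libraries: deviations of same-numbered sham and HF-HI libraries correlated from -0.31 to 0.36, 4 of 10 over 0.1, and 0 of 10 libraries correlated best with their own number. With the replicate block, 6 clock genes and 25 pathway genes passed, and Gsk3a did not (0.19, adjusted p = 0.115). With the block and the GC trend removed, 5 and 20 passed, and calls were lost for Clock (-0.076, adjusted p = 0.0689), Nampt (-0.080, adjusted p = 0.0583), Chd4 (0.074, adjusted p = 0.0835) and Csnk1a1 (-0.064, adjusted p = 0.126).

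Signs turned for Per3, Nr1d2, Tef, Rorb and Rora and for the Dbp and Hlf contrast, which had not passed, and for Gsk3a and the correlation of Nr1d2 with Dbp, which had. The cause was not tested. With the GC trend removed, Nr1d2 was 0.036, Tef -0.073, Rorb 0.050, Rora 0.044, Gsk3a -0.067 and Dbp minus Hlf -0.17. With the block added, these were 0.029, -0.073, 0.044, 0.016 and -0.074 for the 5 genes. With GC and length trends removed, they were 0.056 for Nr1d2, -0.12 for Tef (limma adjusted p = 0.0304), 0.016 for Rorb and -0.022 for Gsk3a, and Per3 was -0.041. By the Wilcoxon rank-sum test, the differences of medians were -0.0036 for Per3 and -0.026 for Tef. Tef was -0.045 with library medians centred, -0.020 after quantile normalization, -0.0063 with depth as covariate, and -0.025 to 0.027 with each library left out. Rora ran from -0.092 to 0.035 with each library left out. With Dbp as covariate, Per3 was -0.057, Tef -0.13 and Rora 0.045, and without HF-HI replicate 9 as well -0.081, -0.15 and 0.044. The correlation of Nr1d2 with Dbp was -0.070 within sham alone. Gsk3a lost its call in 14 of 21 fits with 1 library left out.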

Other observations

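Sham libraries varied more than HF-HI libraries in 8 of the 10 clock genes, with Dbp and Nr1d2 the exceptions. Among the 15 clock transcription factors measured, none had a sham library that stood apart by Dixon's criterion, and HF-HI, with 11 libraries, was not examined in that way. Libraries were not duplicates of each other.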
